A study of Mus musculus with 4 samples.

Results

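Genes of cholesterol and fatty acid synthesis were examined in embryoid bodies (EBs), cell aggregates formed by differentiating mouse embryonic stem cells (mESCs), after deletion of the *Gm11549* promoter. The 31 genes were chosen by their function and taken by symbol from the 24347 genes listed for each sample. They are 18 sterol synthesis genes, of which 7 act on the way to farnesyl diphosphate (the mevalonate steps) and 11 from squalene to cholesterol, together with 5 genes of SREBP control and sterol transport and 8 fatty acid synthesis genes. RNA-seq was done on 2 samples of WT and 2 of promoter KO EBs, named here WT 1, WT 2, promoter KO 1 and promoter KO 2. Cells of both genotypes were of the 129/Ola strain and had differentiated for 3 days in medium with 15% serum and no LIF. In the promoter KO cells CRISPR/Cas9 had removed the promoter of *Gm11549*, the gene of the micropeptide NEMEP, and clones had been grown from single sorted cells. The study calls the samples of a genotype biologically independent, and it describes 2 promoter KO mutants that are also numbered 1 and 2. It does not say whether promoter KO 1 and promoter KO 2 here are those mutants or repeats of 1 of them, so the p-values measure only the spread between these samples.

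Cells build cholesterol from acetyl-CoA by way of mevalonate and squalene, and they build fatty acids from the same precursor by carboxylation, chain synthesis, elongation and desaturation. Both branches are driven by sterol regulatory element binding proteins (SREBPs), membrane-bound transcription factors that SCAP escorts to the Golgi for cleavage when sterols are scarce and that INSIG proteins hold in the endoplasmic reticulum when sterols are plentiful. The product of *Srebf2* acts mainly on sterol genes and the products of *Srebf1* mainly on fatty acid genes, and dividing embryonic cells draw on both branches for new membrane.

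*Gm11549* was listed at 0.750 and 0.522 FPKM (fragments of RNA counted per kilobase of a transcript and per size of the library) in WT 1 and 2, against 0 and 0.0659 in promoter KO 1 and 2. The promoter KO values both lay under the WT values, the direction that the labels give, and the gene was below the filter for testing. A gene was tested if 2 or more of the 4 samples had 1 FPKM or more, which held for 11941 genes, and all 31 synthesis genes were among them. Each gene was compared on the log2(FPKM + 1) scale with limma, two-sided, with Benjamini-Hochberg adjustment over all genes tested. A gene is said to have risen or fallen only at an adjusted p under 0.05. With 2 samples in each genotype the smallest two-sided p of an exact permutation test is 0.333, so passing a threshold depends on limma's pooling of variance over genes.

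The values summed to 677777 and 696928 FPKM in WT 1 and 2, against 673951 and 679870 in promoter KO 1 and 2. The value that a single fragment is worth gave estimated depths of 25200000 and 22300000 fragments for WT 1 and 2, and of 22200000 and 20600000 for promoter KO 1 and 2. The synthesis genes ranged from 4.06 to 244.6 FPKM over the samples and none was listed at 0. Fragments of each member were estimated from these depths and the length of its longest protein-coding transcript, whichever transcripts were in use. By this estimate the lowest sample of *Tm7sf2* held about 146 fragments, which gives a counting error of 8.26%. The lowest sample of each other member held at least 385, with an error of at most 5.10%. Near-identical copies in another gene (at least 95% identity over at least 200 bases of transcript) were found for 8 members, and exons of 11 overlap another gene, so some reads may be shared. The members' median mean level was 32.0 FPKM, against 11.8 FPKM over all genes tested.

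The first question was whether synthesis genes differed between the genotypes. Of the 31 genes, 1 fell in promoter KO EBs (*Tm7sf2*) and 0 rose at an adjusted p under 0.05 (limma, Benjamini-Hochberg), against 3.58% of all genes tested, 1.89% lower and 1.68% higher. Without adjustment, 7 had a p under 0.05 and were lower and 3 were higher, a total of 10, where 30.6% of all genes had such a p, 15.6% lower and 15.0% higher. In 11 members the promoter KO samples were both under the WT samples, in 9 they were both over them, and in the other 11 the genotypes overlapped. Over all genes tested the genotypes were apart in 65.3%, lower in 32.4% and higher in 32.9%. The members' counts are therefore near the shares in all genes. The count over all genes, 427, itself varied with the samples, to 175 without WT 1, 0 without WT 2, 0 without promoter KO 1 and 486 without promoter KO 2, and in these 4 fits 0 members passed, except for *Srebf2* without promoter KO 2.

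The log2 fold change of promoter KO against WT had a median of −0.05 over the members and 0.00 over all genes tested. Its median size regardless of sign was 0.18 over the members and 0.21 over all genes, and 1 member (3.23%) exceeded 0.5 in size against 15.8% of all genes. The 95% confidence interval lay between −1 and 1 for 30 members (96.8%), against 87.8% of all genes, and between −0.5 and 0.5 for 20 members (64.5%), against 43.5%. Replicates of the members differed by a median SD of 0.11 on the log2 scale, against 0.12 for all genes. The median standard error was 0.11 over the members and 0.13 over all genes. The shares above were not matched for expression level, and the members' median level was the higher one. At the members' median standard error of 0.11 a log2 fold change of about 0.57 in size would have been needed to pass, so a smaller difference with that error would have missed. For the 30 members that missed the threshold the intervals reached from −0.74 to 0.69 at their outer bounds.

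**Figure D1:**
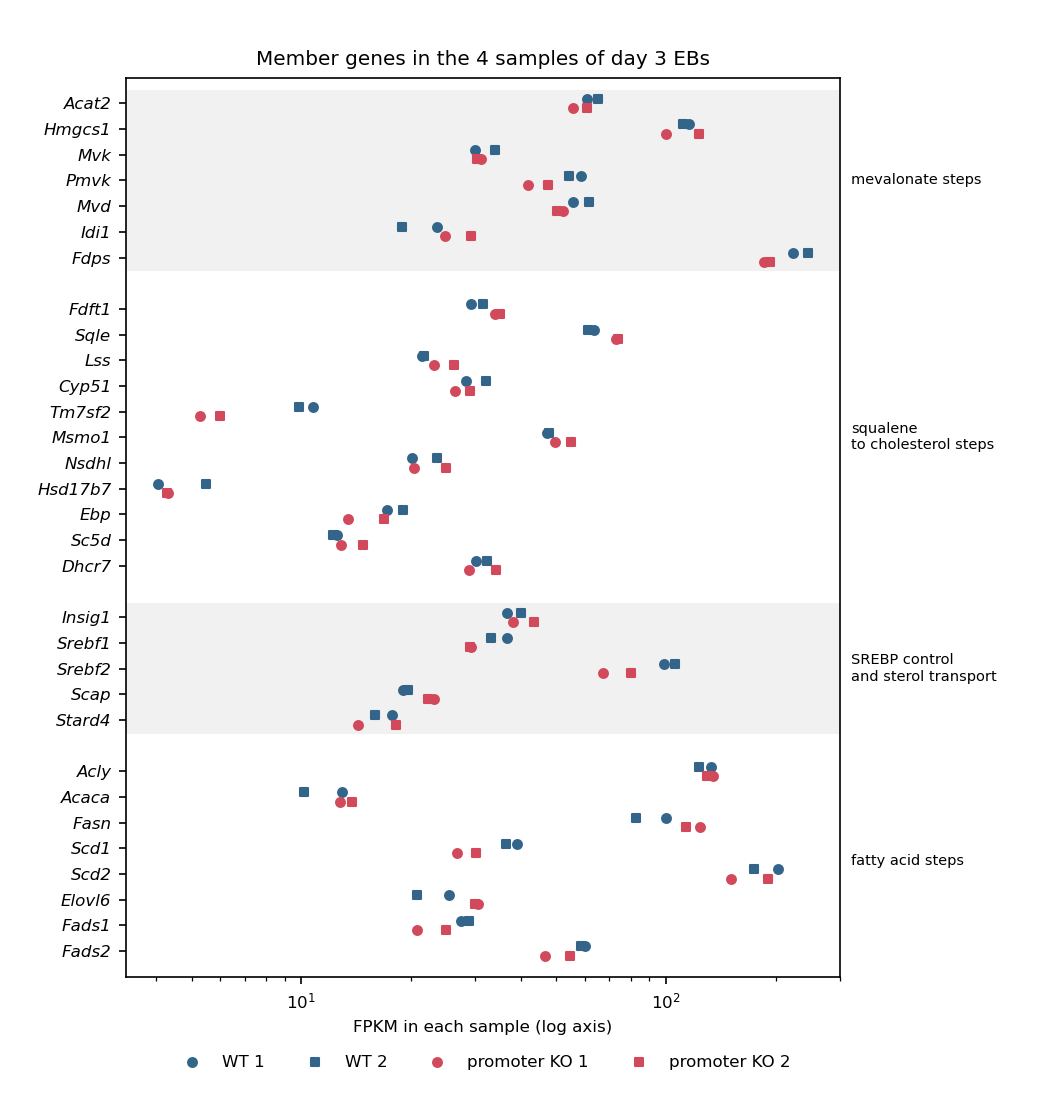
FPKM (log axis) of each of the 31 members in the 4 samples, grouped by step, with 1 point per sample coloured by genotype. The genotypes overlap for 11 genes, and *Tm7sf2* has both promoter KO points, 5.27 and 5.98 FPKM, below both WT points.

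**Figure D2:**
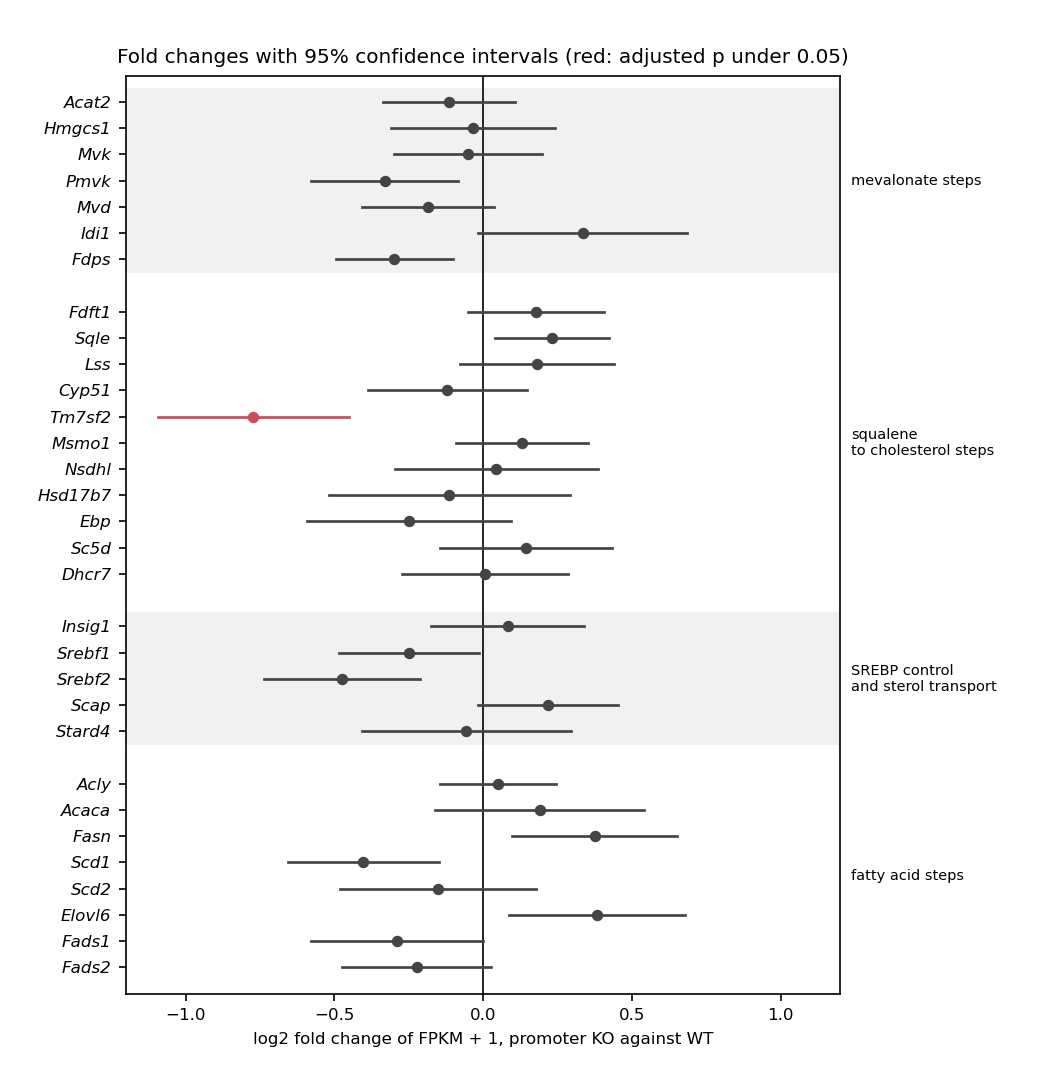
Log2 fold change of promoter KO against WT on the FPKM + 1 scale for each member, with its 95% confidence interval as a bar, grouped by step. *Tm7sf2* at −0.77 is the only member with an adjusted p under 0.05 in limma, and the others lie between −0.47 and 0.38.

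RefSeq promoter windows (GRCm38.p6), each from 250 bases before to 50 bases after a start site, were matched to 24 of the 31 members and gave 30 windows, some of them overlapping windows of 1 gene. *Fads1*, *Fdft1*, *Fdps*, *Scd1*, *Scd2*, *Sqle* and *Stard4* had no entry. Both strands were searched for TCACNCCAC, a core of the sterol regulatory element to which SREBPs bind, where N is any base, and for CCAAT, for the GC box GGGCGG and for the E-box CACGTG. The sterol regulatory element letters were in 1 member window (3.33%) and in 1.24% of all 32851 windows. CCAAT was in 20 member windows (66.7%) and in 37.4% of all windows, GGGCGG in 23 (76.7%) and in 35.7%, and CACGTG in 6 of the 30 and in 7.15%. These are shares without a test, the windows were not matched for base composition, and a match describes letters, not a bound site. The windows are shown, 5′ to 3′ on the gene's strand with matches on either strand in capitals, for *Hmgcs1* (chr13:119690101-119690400, plus strand), the gene with the sterol regulatory element match, for *Tm7sf2* (chr19:6067801-6068100, minus strand), the gene that fell, and for *Srebf2* (chr15:82147019-82147318, plus strand) and *Fasn* (chr11:120824498-120824797, minus strand), a regulator and a fatty acid gene. The 4 genes were chosen after their values were seen.
Hmgcs1: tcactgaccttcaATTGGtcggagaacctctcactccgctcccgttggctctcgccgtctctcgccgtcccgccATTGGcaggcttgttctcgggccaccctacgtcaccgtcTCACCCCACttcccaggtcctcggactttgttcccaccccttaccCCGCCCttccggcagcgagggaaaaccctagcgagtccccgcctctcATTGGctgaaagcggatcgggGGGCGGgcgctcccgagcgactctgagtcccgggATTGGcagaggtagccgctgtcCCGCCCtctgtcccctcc
Tm7sf2: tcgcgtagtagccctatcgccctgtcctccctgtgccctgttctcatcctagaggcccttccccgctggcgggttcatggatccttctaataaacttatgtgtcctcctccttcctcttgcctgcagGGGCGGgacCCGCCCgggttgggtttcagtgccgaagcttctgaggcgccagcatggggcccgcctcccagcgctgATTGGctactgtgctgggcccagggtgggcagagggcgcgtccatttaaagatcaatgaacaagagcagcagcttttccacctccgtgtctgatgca
Srebf2: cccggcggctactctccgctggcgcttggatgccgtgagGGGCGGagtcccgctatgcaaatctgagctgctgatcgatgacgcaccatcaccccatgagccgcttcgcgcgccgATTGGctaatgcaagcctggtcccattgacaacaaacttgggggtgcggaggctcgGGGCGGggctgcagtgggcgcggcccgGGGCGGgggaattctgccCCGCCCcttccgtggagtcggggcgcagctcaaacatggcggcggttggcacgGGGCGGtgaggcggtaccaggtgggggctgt
Fasn: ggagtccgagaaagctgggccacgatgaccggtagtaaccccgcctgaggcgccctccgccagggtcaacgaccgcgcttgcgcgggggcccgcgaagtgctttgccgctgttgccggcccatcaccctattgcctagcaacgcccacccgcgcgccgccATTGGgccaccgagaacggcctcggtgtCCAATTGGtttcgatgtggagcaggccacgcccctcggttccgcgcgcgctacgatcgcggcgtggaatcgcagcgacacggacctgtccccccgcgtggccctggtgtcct

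The *Hmgcs1* match TCACCCCAC began 137 bases before the start site, and its window also held 4 CCAAT matches and 3 GC boxes. The *Tm7sf2* window held 1 CCAAT match and 2 GC boxes, and the *Srebf2* window 1 and 5. The *Fasn* window held 3 CCAAT matches, of which 2 overlap on opposite strands, and 0 GC boxes. None of the 4 windows held CACGTG.

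The mevalonate steps turn acetyl-CoA into farnesyl diphosphate. *Fdps*, whose product makes farnesyl diphosphate, was the most abundant of the 31 genes at 223 and 244.6 FPKM in WT 1 and 2, against 186 and 193 in promoter KO 1 and 2. Neither promoter KO value reached the WT values, with a log2 fold change of −0.30 (95% confidence interval −0.50 to −0.10, adjusted p 0.0790 by limma). *Pmvk*, which encodes the kinase that phosphorylates mevalonate phosphate, was at 58.6 and 54.2 FPKM in WT 1 and 2, against 41.8 and 47.6 in promoter KO 1 and 2. Its genotypes did not overlap either, and its log2 fold change was −0.33 (−0.58 to −0.08, adjusted p 0.0992). *Hmgcs1*, for HMG-CoA synthase, was at 115.7 and 111.2 FPKM in WT 1 and 2, against 100.004 and 122.9 in promoter KO 1 and 2. Promoter KO 1 was its lowest sample and promoter KO 2 its highest, so the genotypes overlapped, with a log2 fold change of −0.03 (−0.31 to 0.24, adjusted p 0.864).

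*Idi1*, for the isomerase of isopentenyl diphosphate, went the other way, with 23.5 and 18.9 FPKM in WT 1 and 2, against 24.7 and 29.2 in promoter KO 1 and 2. The promoter KO values both exceeded the WT values, WT 1 and promoter KO 1 close together, and the log2 fold change was 0.33 (−0.02 to 0.69, adjusted p 0.177). The remaining mevalonate genes had log2 fold changes of −0.11 for *Acat2* (acetoacetyl-CoA formation), −0.05 for *Mvk* (mevalonate kinase) and −0.18 for *Mvd* (the decarboxylase). Of the 7 mevalonate genes 6 had a log2 fold change below 0, with a median of −0.11, and 0 passed the adjusted threshold, while 2 of the 7 (*Fdps* and *Pmvk*) had an unadjusted p under 0.05, near the share of 30.6% in all genes tested. Their summed level was 567 and 589.6 FPKM in WT 1 and 2, against 492 and 535 in promoter KO 1 and 2, with *Fdps* the largest part. The sign for *Hmgcs1* turned to 0.11 without promoter KO 1 and that for *Mvk* to 0.04 without WT 2.

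The steps from farnesyl diphosphate to squalene and on to cholesterol held the member that fell. *Tm7sf2* encodes a sterol reductase that removes a ring double bond after lanosterol demethylation, and it was at 10.8 and 9.84 FPKM in WT 1 and 2, against 5.27 and 5.98 in promoter KO 1 and 2. No promoter KO value came near the WT values, with means of 10.3 ± 0.646 FPKM in WT and 5.62 ± 0.503 in promoter KO (SD, n = 2). The log2 fold change was −0.77 (standard error 0.13, 95% confidence interval −1.09 to −0.45, adjusted p 0.0459 by limma with Benjamini-Hochberg adjustment), and the log2 ratio of the means without a pseudocount was −0.87. The adjusted p lay close to the threshold, and it passed in 4 of 11 other settings, with a range of 0.0360 to 0.204. It was 0.108 without WT 1, 0.204 without WT 2, 0.186 without promoter KO 1 and 0.0591 without promoter KO 2, each with the log2 fold change still below 0.

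*Tm7sf2* lies on the minus strand at chr19:6062821-6068373 (GRCm38, GENCODE M21), with 10 exons in its longest transcript. Its exons share 532 bases with exons of *Vps51* on the same strand, where reads of either gene can fall. *Vps51*, which codes for a subunit of a vesicle tethering complex, was at 17.0 and 22.2 FPKM in WT 1 and 2, against 13.5 and 16.6 in promoter KO 1 and 2. The WT values of *Vps51* were the higher ones, with a log2 fold change of −0.35 (−0.76 to 0.05, adjusted p 0.206), and its part in the values of *Tm7sf2* was not tested. No other gene had a near-identical copy of a *Tm7sf2* transcript.

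*Sqle* encodes squalene epoxidase, which takes the first oxygen-requiring step of sterol synthesis, and was at 63.6 and 61.3 FPKM in WT 1 and 2, against 73.2 and 73.9 in promoter KO 1 and 2. In promoter KO both values were the higher ones and replicates lay close together, with a log2 fold change of 0.23 (0.04 to 0.43, adjusted p 0.117). *Msmo1*, for the sterol methyl oxidase that starts the removal of ring methyl groups, was at 47.3 and 47.8 FPKM in WT 1 and 2, against 49.6 and 54.9 in promoter KO 1 and 2. Its genotypes did not overlap, promoter KO 1 lying just above WT, and the log2 fold change was 0.13 (−0.09 to 0.35, adjusted p 0.359). The remaining 8 genes of these steps lay between −0.25 for *Ebp* (sterol isomerase) and 0.18 for *Lss* (lanosterol synthase). Among them *Fdft1* (squalene synthase) also had 0.18 and *Sc5d* (sterol desaturase) 0.14, while *Cyp51* (lanosterol demethylase) had −0.12, *Hsd17b7* (a sterol ketone reductase) −0.11, *Nsdhl* (a sterol dehydrogenase) 0.05 and *Dhcr7*, for the last reductase, 0.01.

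Of the 11 genes from squalene to cholesterol, 7 had a log2 fold change above 0 and 4 below, with a median of 0.05. The sign for *Nsdhl* turned to −0.06 without WT 1 and −0.10 without promoter KO 2, that for *Dhcr7* to −0.04 and −0.11 without the same samples, and that for *Hsd17b7* to 0.07 without WT 2. An unadjusted p under 0.05 was reached by *Tm7sf2* and *Sqle*, 2 of the 11 genes against 30.6% of all genes. The 11 genes summed to 285 and 297 FPKM in WT 1 and 2, against 291 and 320.2 in promoter KO 1 and 2, so the genotypes overlapped in the sum. *Fdft1* shares 774 exon bases with *Ctsb*, a cathepsin gene on the opposite strand that was at 22.1, 22.2, 26.4 and 28.8 FPKM in WT 1, WT 2, promoter KO 1 and promoter KO 2.

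Of the genes that set SREBP activity, *Srebf2* (chr15:82147181-82205379, plus strand) had the largest difference. It was at 98.8 and 106.0 FPKM in WT 1 and 2, against 67.4 and 80.0 in promoter KO 1 and 2. In promoter KO both values were the lower ones, and the log2 fold change was −0.47 (standard error 0.11, 95% confidence interval −0.74 to −0.21, adjusted p 0.0630 by limma). That p missed the threshold, and over 11 other settings it ranged from 0.0326 to 0.289. It passed without promoter KO 2, at 0.0485, and with the replicate numbers as a block, at 0.0326. *Srebf1* was at 36.7 and 33.1 FPKM in WT 1 and 2, against 29.2 and 29.1 in promoter KO 1 and 2. Its genotypes did not overlap, and its log2 fold change was −0.25 (−0.48 to −0.01, adjusted p 0.148). *Srebf1* shares 109 exon bases with *Rai1* on the opposite strand, which encodes a chromatin-associated protein. *Rai1* was at 15.1, 16.0, 7.50 and 10.2 FPKM in WT 1, WT 2, promoter KO 1 and promoter KO 2. Its log2 fold change was −0.76, with an adjusted p of 0.0583 in limma and of 0.0338 with the replicate numbers as a block.

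*Scap*, for the escort of the SREBPs, was at 19.0 and 19.7 FPKM in WT 1 and 2, against 23.1 and 22.3 in promoter KO 1 and 2. Each promoter KO value was above each WT value, with a log2 fold change of 0.22 (−0.02 to 0.45, adjusted p 0.185). *Insig1*, which retains the SCAP complex and is itself an SREBP target, was at 36.7 and 40.2 FPKM in WT 1 and 2, against 38.2 and 43.5 in promoter KO 1 and 2. The genotypes overlapped, with a log2 fold change of 0.08 (−0.18 to 0.34, adjusted p 0.622). *Stard4*, for a sterol carrier protein, had a log2 fold change of −0.06 with overlapping genotypes. The sign for *Insig1* turned to −0.01 without promoter KO 2, and that for *Stard4* to 0.02 without WT 1 and 0.11 without promoter KO 1. The 5 genes summed to 209 and 215 FPKM in WT 1 and 2, against 172 and 193 in promoter KO 1 and 2, *Srebf2* being the most abundant, and 0 of them passed the adjusted threshold (limma) while 2, *Srebf1* and *Srebf2*, had an unadjusted p under 0.05, both lower, against 15.6% of all genes that were lower by this measure.

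In the fatty acid branch *Acly* makes cytosolic acetyl-CoA, *Acaca* carboxylates it, *Fasn* builds the chain, *Elovl6* extends it, and the products of *Scd1*, *Scd2*, *Fads1* and *Fads2* introduce double bonds. *Scd1* was at 39.2 and 36.5 FPKM in WT 1 and 2, against 26.7 and 30.2 in promoter KO 1 and 2. Each promoter KO value was below each WT value, with a log2 fold change of −0.40 (−0.66 to −0.15, adjusted p 0.0739 by limma). *Scd2*, the more abundant desaturase gene, was at 203 and 174.7 FPKM in WT 1 and 2, against 151 and 190.4 in promoter KO 1 and 2. Its genotypes overlapped, promoter KO 2 lying between the WT samples, and the log2 fold change was −0.15 (−0.48 to 0.18, adjusted p 0.473), which became 0.01 without promoter KO 1. The *Scd1* and *Scd2* transcripts are near-identical over at least 200 bases (at least 95% identity), so reads can be shared between them.

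*Elovl6* was at 25.4 and 20.7 FPKM in WT 1 and 2, against 30.5 and 30.0 in promoter KO 1 and 2. The WT values were both the lower ones, with a log2 fold change of 0.38 (0.09 to 0.68, adjusted p 0.105). *Acly* was at 132.7 and 123 FPKM in WT 1 and 2, against 134.7 and 130.0 in promoter KO 1 and 2. Its genotypes overlapped, with a log2 fold change of 0.05 (−0.14 to 0.24, adjusted p 0.699). *Fasn*, singled out after its values were seen, was at 100.2 and 83.0 FPKM in WT 1 and 2, against 124 and 113 in promoter KO 1 and 2. The promoter KO values both exceeded the WT values, with a log2 fold change of 0.38 (0.10 to 0.65, adjusted p 0.0968), and over 11 other settings the adjusted p passed only with the replicate block (0.0476), in a range of 0.0476 to 0.389. *Acaca* had a log2 fold change of 0.19 with overlapping genotypes, and *Fads1* and *Fads2* had −0.29 and −0.22 with genotypes that did not overlap.

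The 4 genes of acetyl-CoA supply, chain synthesis and elongation all had a log2 fold change above 0, with a median of 0.28, and the 4 desaturase genes all had one below 0, with a median of −0.26. This split was chosen after the values were seen and was not tested. Median centring and quantile normalization kept the side of 0 for each of the 8 genes, while *Acly* came to −0.00 without WT 2 and *Scd2* to 0.01 without promoter KO 1. Summed levels of *Acly*, *Acaca*, *Fasn* and *Elovl6* were 271 and 237 FPKM in WT 1 and 2, against 302 and 287 in promoter KO 1 and 2. Those of the desaturase genes were 329.9, 298, 245 and 300.2 FPKM in the same order, and here promoter KO 2 lay between the WT samples. An unadjusted p under 0.05 was found for *Scd1* and *Fads1*, lower in promoter KO, and for *Fasn* and *Elovl6*, higher. Of all genes tested 15.6% were lower and 15.0% higher by this measure, and 0 of the 8 genes passed the adjusted threshold (limma).

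Set side by side, the median log2 fold change was −0.04 for the 18 sterol synthesis genes, with 10 below 0 and 8 above. For the 8 fatty acid genes it was −0.05, with 4 below and 4 above. The side of 0 of both medians depended on the samples used. The sterol median was −0.10 without WT 1, 0.05 without WT 2, 0.03 without promoter KO 1 and −0.11 without promoter KO 2. The fatty acid median was 0.03, −0.12, 0.02 and −0.12 in the same order. The sterol genes summed to 851.8 and 886.5 FPKM in WT 1 and 2, against 782.9 and 854.8 in promoter KO 1 and 2, and the fatty acid genes to 601, 535, 547 and 587 FPKM in the same order. Promoter KO 2 lay between the WT samples in the sterol sum, and both promoter KO samples did in the fatty acid sum. With *Srebf2* and the other control and transport genes added, the sterol side of 23 genes had a median of −0.05. These 23 genes summed to 1061 and 1101 FPKM in WT 1 and 2, against 955 and 1048 in promoter KO 1 and 2, without overlap. Differences were wider in the fatty acid branch, with a median size of 0.26 regardless of sign against 0.16 in sterol synthesis and 0.21 over all genes tested. Replicates differed more in that branch too, by a median SD of 0.14 on the log2 scale against 0.10 in sterol synthesis. The contrast, and the part of replicate spread in it, was not tested.

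Other genes of the pathways were taken from 4 lists with 61 genes, of which 57 could be tested, and 1 of these rose and 0 fell. With the replicate numbers as a block 6 passed, 4 lower (*Scarb1*, *Slc25a1*, *Tecr* and *Decr1*) and 2 higher (*Cpt1a* and *Hadhb*), where 1202 of all 11941 genes passed. Apart from *Tecr* and *Cpt1a*, these were named after their values were seen. Beside the counts of these lists stand the shares in all genes tested, 3.58% by adjusted p, and 15.6% lower and 15.0% higher by unadjusted p under 0.05. Among 8 other genes of sterol synthesis and its control 0 passed in limma and 0 had an unadjusted p under 0.05, with a median log2 fold change of −0.03. Among 14 sterol uptake, storage and export genes, 13 could be tested, 0 passed in limma, and 2 were lower and 1 higher by unadjusted p under 0.05, with a median log2 fold change of −0.18. Their most abundant gene *Npc2*, for a lysosomal cholesterol carrier, was at 66.2 and 76.3 FPKM in WT 1 and 2, against 57.4 and 60.1 in promoter KO 1 and 2. The WT values were both the higher ones (−0.27, adjusted p 0.135). Of 21 other fatty acid and glycerolipid synthesis genes, 20 could be tested, 0 passed, and 3 were lower and 3 higher without adjustment, with a median of −0.01. The most abundant, *Tecr*, for the reductase that ends each elongation cycle, was at 208.9 and 234.9 FPKM in WT 1 and 2, against 163.5 and 184 in promoter KO 1 and 2. Its genotypes did not overlap (−0.35, adjusted p 0.0840), and its adjusted p was 0.0411 with the replicate block, in a range of 0.0411 to 0.366 over 11 other settings.

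Fatty acid oxidation genes, which run opposite to synthesis, numbered 18, of which 16 could be tested, and 1 rose while 0 fell. *Cpt1a*, for the carnitine transferase that admits fatty acids to mitochondria, was at 5.44 and 4.34 FPKM in WT 1 and 2, against 10.4 and 9.74 in promoter KO 1 and 2. In promoter KO both values were the higher ones, and *Cpt1a* rose with a log2 fold change of 0.91 (0.56 to 1.27, adjusted p 0.0422 by limma with Benjamini-Hochberg adjustment). It passed in 5 of 11 other settings, over a range of 0.0249 to 0.204, and missed when any 1 sample was left out, at 0.0584 without WT 1, 0.204 without WT 2, 0.182 without promoter KO 1 and 0.0656 without promoter KO 2. The most abundant oxidation gene, *Etfa*, for an electron transfer flavoprotein subunit, was at 67.9 and 79.1 FPKM in WT 1 and 2, against 73.8 and 72.2 in promoter KO 1 and 2. Its genotypes overlapped (−0.01, adjusted p 0.978). By unadjusted p under 0.05, 4 oxidation genes were lower and 5 higher, 9 of the 16 tested against 30.6% of all genes, and the median was 0.09. That difference in shares was not tested.

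**Figure D3:**
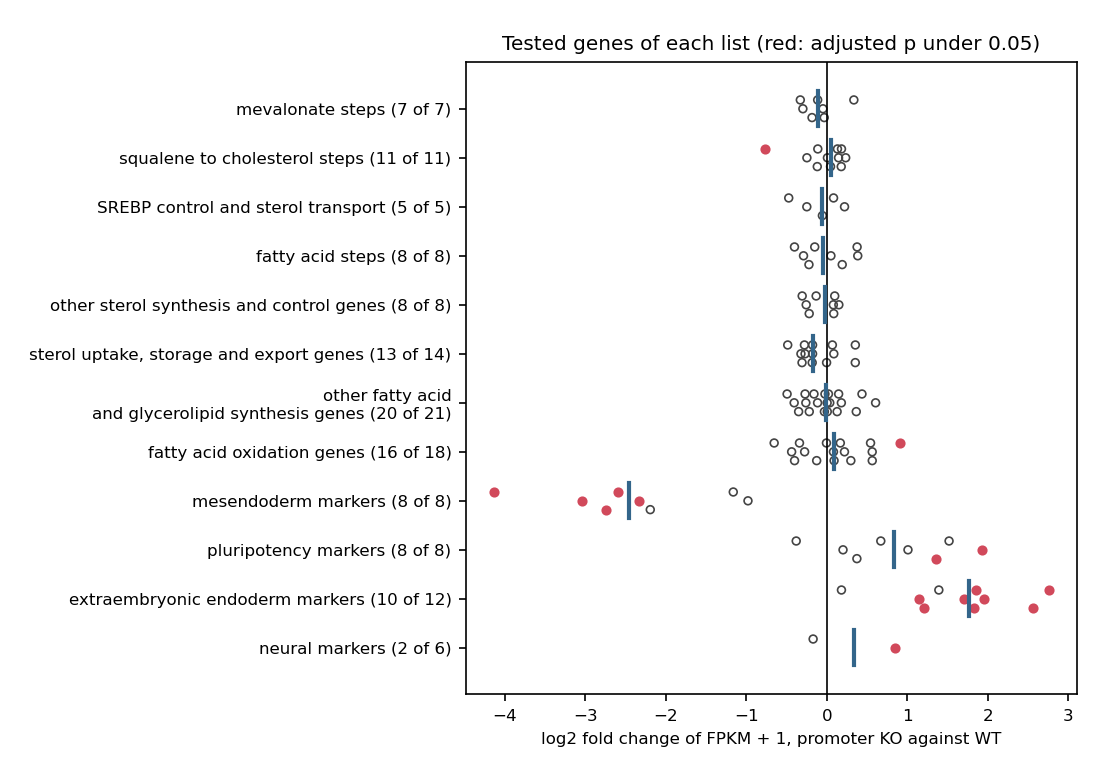
Log2 fold change of promoter KO against WT for every tested gene of the member lists, related lists and marker lists, with 1 circle per gene, filled red at an adjusted p under 0.05, and a bar at each list's median. The synthesis lists have medians between −0.11 and 0.05, whereas the marker lists spread more widely.

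The samples are labelled as mesendoderm cells derived from mESCs, and markers of several cell types were read beside the synthesis genes. All 8 mesendoderm markers were detected in WT, summing to 777 FPKM in WT 1 and 1002 in WT 2, against 147.6 in promoter KO 1 and 314 in promoter KO 2. Their most abundant gene *T*, for the transcription factor brachyury, was at 306, 448, 50.5 and 127 FPKM in the same order, and its adjusted p of 0.0509 (limma) missed the threshold. Of the 8 markers 5 fell, namely *Lhx1*, *Gsc*, *Mixl1*, *Mesp1* and *Evx1*, where 1.89% of all genes fell. With the replicate block *T* and *Eomes* passed as well, which makes 7 of 8, where 667 of all 11941 genes were lower, and over 11 other settings the adjusted p ranged from 0.00809 to 0.246 for *T* and from 0.0139 to 0.247 for *Eomes*. Both also passed without promoter KO 2, at 0.0307 for *T* and 0.0139 for *Eomes*, while without WT 2 or without promoter KO 1 the count over all genes was 0, markers included. The pluripotency markers summed to 1986 and 1699.7 FPKM in WT 1 and 2, against 2863 and 2471 in promoter KO 1 and 2, and 2 of 8 rose (*Utf1* and *Dnmt3l*), where 1.68% of all genes rose. *Nanog*, singled out after its values were seen, went the other way, with 139.9 and 113.2 FPKM in WT 1 and 2, against 94.1 and 98.7 in promoter KO 1 and 2. Its genotypes did not overlap, and its log2 fold change was −0.38 (−0.66 to −0.10, adjusted p 0.0974 by limma). *Pou5f1*, the most abundant of them, was at 1499, 1188, 1522 and 1545 FPKM, so mesendoderm and pluripotency genes were both expressed in every sample.

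Of 12 extraembryonic endoderm markers 10 could be tested and 8 rose, against 1.68% of all genes. Among these 8, *Sox7* and *Cubn* stayed below 1 FPKM in both WT samples and met the filter only through the promoter KO samples. With WT this low, a fall would have left them untested, so their rise is not separate evidence. The list summed to 73.5 and 97.6 FPKM in WT 1 and 2, against 212 and 267 in promoter KO 1 and 2. The most abundant was *Sparc*, at 46.0, 59.3, 110.9 and 133.6 FPKM. *Gata4* and *Afp* were tested and did not pass. *Gata4* was at 5.02 and 19.4 FPKM in WT 1 and 2, against 9.68 and 13.8 in promoter KO 1 and 2. Its genotypes overlapped, with a log2 fold change of 0.18 (adjusted p 0.842 by limma). *Afp* was higher in both promoter KO samples (log2 fold change 1.39, adjusted p 0.0899 by limma). *Hnf4a*, which reached at most 1.24 FPKM, and *Thbd* were below the filter. Of 6 neural markers 2 could be tested and 1 rose (*Tubb3*), against the same 1.68%, with sums of 17.6 and 14.6 FPKM in WT 1 and 2, against 26.4 and 30.4 in promoter KO 1 and 2, and *Sox1*, *Pax6*, *Neurog2* and *Zic1* were below 1 FPKM in every sample. The genotypes thus differ in their marker levels, and in these bulk samples fewer cells of a type and less RNA per cell cannot be told apart. What part the cell types have in the values of *Tm7sf2*, *Srebf2* and the other synthesis genes was not tested. The marker sums differed between genotypes without overlap for each of the 4 lists, while the sums of all sterol synthesis genes and of all fatty acid genes overlapped. Within the sterol branch the mevalonate sum did not overlap, and neither did that of the SREBP control and transport genes. The sum of the 23 sterol synthesis, control and transport genes together did not overlap either. Beside these sums stands the share of single genes tested whose genotypes were apart, 65.3%. A sum also follows mainly its most abundant genes, so its overlap does not describe each gene of a list.

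**Figure D4:**
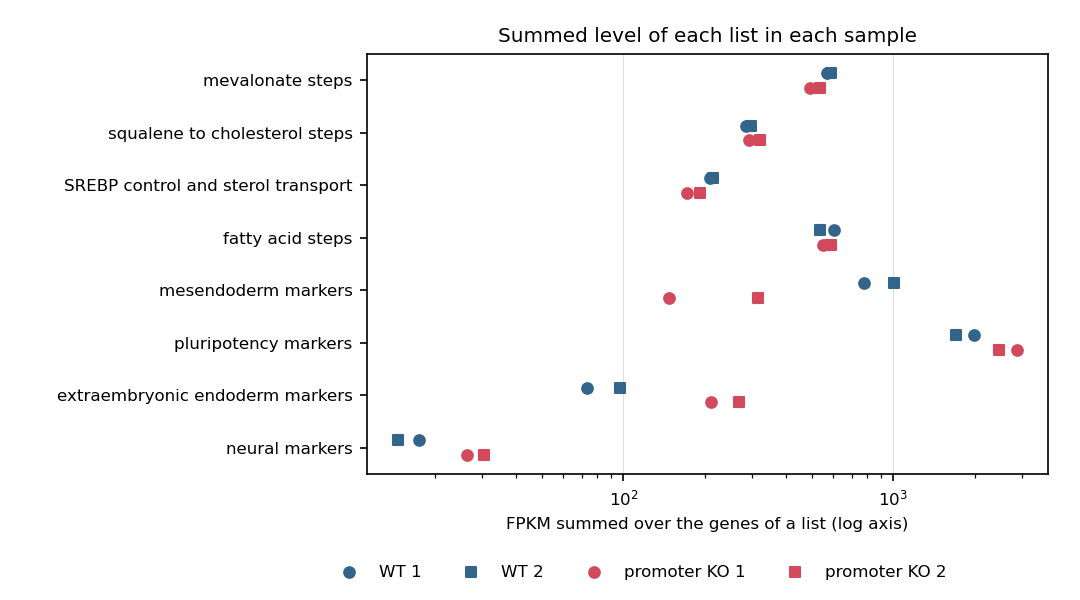
FPKM (log axis) summed over each of the 4 member lists and 4 marker lists, with 1 point per sample. The genotypes overlap in the sums for squalene to cholesterol and for fatty acid synthesis, while the mesendoderm sums are 147.6 and 314 in promoter KO against 777 and 1002 in WT.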

How the data were processed

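RNA-seq of 2 WT and 2 promoter KO samples was used as deposited by the authors, as FPKM in 1 file per sample. The deposited processing notes name HISAT2 2.1.0, Cufflinks and Cuffnorm, while the paper's methods name TopHat, Cufflinks and Cuffdiff and call the unit RPKM. Which aligner made these values is not known.

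Genotype was tested on log2(FPKM + 1) for genes that had 1 FPKM or more in 2 or more samples, using limma 3.58.1 (R 4.3.3) with an intensity trend in eBayes and Benjamini-Hochberg adjustment over all of them. The fit and the depth estimate were tested on simulated data. Depth came from the smallest values of genes with 1 annotated transcript (GENCODE M21), at the fragment length that lined most of them up, and covers counting error only. BLAST 2.17.0 was used to find near-identical copies, and pandas 2.3.3 and numpy 2.4.6 under Python 3.11.15 for tables.

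Values in every sample are given for genes with an adjusted p under 0.05, the 2 most abundant genes and the largest rise and fall in each member list, both Scd genes, Srebf1, Srebf2, Insig1 and Scap, and, of the other lists, for the genes that passed and, in all but 1 list, the most abundant. Other marker genes and genes that share exon bases were named after their values were seen. The members and lists were chosen with earlier results of these data known. Alternatives were a replicate block, another pseudocount, other filters, no variance trend, median centring, quantile normalization, each sample left out, the study's volcano thresholds, and the ratio of means.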

Additional observations from a re-analysis of the deposited data

How the results depend on the processing

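Over all genes tested, 427 passed (226 lower, 201 higher). With the labels' replicate numbers as a block (the replicate block) 1202 passed (667 lower, 535 higher), without a filter 0 of 18215 (4059 with an unadjusted p under 0.05 in limma), at a mean of at least 5 FPKM 203, without the variance trend 82, after median centring 283, and with 1 sample left out 0 to 486. For the sterol synthesis genes the count of 1 became 0 without a filter, at a mean of at least 5 FPKM, without the trend, at the volcano thresholds and with 1 sample left out (0 to 0). For the fatty acid genes the count of 0 became 1 (Fasn) with the replicate block and stayed 0 with 1 sample left out (0 to 0). For the SREBP control and transport genes it became 1 (Srebf2) with the replicate block and 0 to 1 with 1 sample left out. Fewer samples or a different number of genes tested enter some of these by construction, and otherwise the cause was not tested.

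The replicate block pairs samples that share only a number: the departures of WT 1 and promoter KO 1 from their genotype means had a correlation of 0.0348 over 11941 genes, which are not independent replicates.

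With 1 sample left out, the log2 fold change ranged from −0.18 to 0.11 for Hmgcs1, −0.14 to 0.0401 for Mvk, −0.10 to 0.19 for Nsdhl, −0.29 to 0.0666 for Hsd17b7, −0.11 to 0.13 for Dhcr7, −0.00971 to 0.17 for Insig1, −0.22 to 0.11 for Stard4, −0.00362 to 0.10 for Acly and −0.32 to 0.0142 for Scd2. The other 22 members kept their side of 0 in every setting. Hsd17b7 was below the filter at a mean of 5 FPKM and has no value there.

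With 2 samples per genotype, and a lone sample assumed to vary like the other genotype when 1 is left out, a missed threshold does not show equal levels. FPKM are relative to the library, so a change common to all genes cannot be seen, and median centring moved the median of all genes to 0.04. The pseudocount of 1 shrinks differences in genes with low values such as Tm7sf2, whose estimated 146 fragments in its lowest sample set the counting error. Reads shared with overlapping genes or near-identical copies cannot be separated in the deposited values. Protein, sterol and fatty acid levels were not measured.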
